A study of Mus musculus with 11 samples.

Results

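The genes described here form the pappalysin and IGF-binding protein axis: the metalloprotease genes Pappa and Pappa2, the stanniocalcin genes Stc1 and Stc2, the receptor gene Igf1r, and the binding protein genes Igfbp2, Igfbp3, Igfbp4, Igfbp5 and Igfbp7. The set was named by symbol and holds 10 of the 55536 genes counted. It was drawn up because Pappa was lower in Sca-1neg tdT+ than in Sca-1neg tdT- libraries, so that difference is given below as a description and is not tested. All 10 members passed the filter on low counts.

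The study measured RNA in 11 bulk libraries of dorsal epidermal cells from male CD4Cre R26-tdT mice on a C57Bl6/N background. In these mice a Cre driven by the CD4 promoter switches on the tdT reporter, so tdT marks cells that once expressed the Cre and the descendants of such cells. The cells of all groups were released with thermolysin and sorted on CD49f, CD34, Sca-1 and tdT. The groups are 3 libraries of Sca-1+ tdT+ cells, 2 of Sca-1+ tdT- cells, 3 of Sca-1neg tdT+ cells and 3 of Sca-1neg tdT- cells, all labelled CD49f+CD34+. Every library pooled 2 mice, aged 29 weeks in replicate 1 of each group and 32 weeks in the other replicates. The labels do not say whether the groups of 1 replicate number came from the same mice, and p-values measure the spread between these pooled libraries.

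Insulin-like growth factors (IGFs) circulate and sit in tissue bound to IGF-binding proteins, which keep them from the receptor IGF1R. The secreted proteases PAPP-A and PAPP-A2, encoded by Pappa and Pappa2, cut some of these binding proteins and so free the ligand near the cell surface, and the stanniocalcins STC1 and STC2 bind and inhibit the proteases. In skin, IGF1 comes largely from dermal cells, and the epidermis and hair follicle carry the receptor.

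Total gene counts ran from 17409131 to 46542177 per library. The tdT tracer was 224 to 307 CPM (counts scaled to the same total in every library) in Sca-1+ tdT+, against 4.10 and 4.89 CPM in Sca-1+ tdT-. Replicates 1 and 3 of Sca-1neg tdT+ had 133 and 252 CPM, against 2.54 to 3.78 CPM in Sca-1neg tdT-. The library labelled as replicate 2 of Sca-1neg tdT+ had only 2.05 CPM (exact Clopper-Pearson 95% interval 1.44 to 2.83, counting error only). Albumin (Alb), a liver transcript, reached 8521 CPM in replicate 1 of Sca-1neg tdT+ and 4547 CPM in the library labelled replicate 2 of that group. It reached 5861 CPM in replicate 2 of Sca-1neg tdT-, and at most 37.2 CPM in the other 8 libraries. These 3 are called the liver-transcript libraries and are shown apart. A summed list of 8 bulge keratinocyte markers was 4413 to 7418 CPM in Sca-1+ and 11631 to 22334 CPM in Sca-1neg libraries, and Cd34 itself was only 22.3 to 35.7 CPM in Sca-1+ tdT+ libraries against 320 and 383 CPM in Sca-1+ tdT-. A summed list of 8 endothelial markers, all detected in every library, was 39.5 to 73.2 CPM in Sca-1+ tdT+ against 1882 and 2013 CPM in Sca-1+ tdT-. It was 5.57 to 498 CPM in Sca-1neg tdT+, highest in the library labelled replicate 2, and 39.6 to 114 CPM in Sca-1neg tdT-.

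Pappa (chromosome 4, 65124174 to 65357509, plus strand, GRCm38) encodes the protease that cuts IGFBP4 and, in part, IGFBP2 and IGFBP5. Its transcript was highest in untraced Sca-1neg cells and lower in the other 3 groups. Levels here are CPM scaled by the trimmed mean of M-values (TMM), replicates in order of number. Pappa was 13.2, 8.46 and 12.7 CPM in Sca-1+ tdT+, 14.3 and 21.5 CPM in Sca-1+ tdT-, 23.4, 14.9 and 25.4 CPM in Sca-1neg tdT+, and 66.4, 96.3 and 72.7 CPM in Sca-1neg tdT-. Every Sca-1neg tdT- library lay above every library of the other groups. The group means, in falling order, were 78.5 ± 15.8 CPM in Sca-1neg tdT-, 21.2 ± 5.59 CPM in Sca-1neg tdT+, 17.9 ± 5.09 CPM in Sca-1+ tdT- and 11.5 ± 2.61 CPM in Sca-1+ tdT+ (SD, n = 3, 3, 2 and 3). Sca-1neg tdT+ and Sca-1+ tdT- overlapped.

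**Figure D1:**
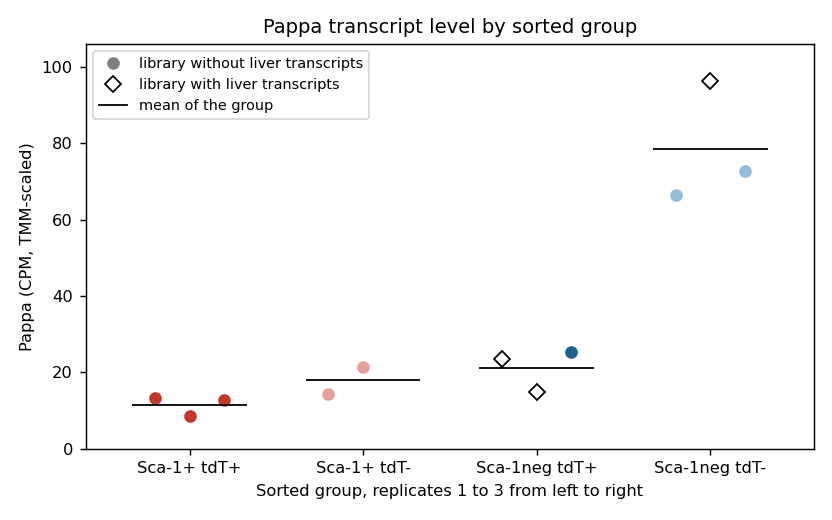
Pappa level (CPM, TMM-scaled, y axis) in each library of the 4 sorted groups (x axis, replicates side by side); filled circles are libraries without liver transcripts, open diamonds the 3 liver-transcript libraries and lines the group means. The 3 Sca-1neg tdT- libraries stand at 66.4 to 96.3 CPM, above all other libraries, which reach at most 25.4 CPM.

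Within the Sca-1neg gate, mean Pappa in tdT+ libraries was 0.271 times that in tdT- libraries, a log2 ratio of -1.89. This is the difference the set was chosen on. Without the 3 liver-transcript libraries the log2 ratio was -1.45, from 1 tdT+ library at 25.4 CPM against tdT- libraries at 66.4 and 72.7 CPM. The lowest tdT+ value of the gate, 14.9 CPM, came from the library labelled replicate 2, the one with a tracer level like that of tdT- libraries. Bulk counts cannot tell apart fewer cells with the transcript and less transcript per cell, here and for every gene below.

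The Sca-1+ gate gives the test of Pappa between traced and untraced cells that the choice of genes did not use. Mean Pappa was 11.5 ± 2.61 CPM in Sca-1+ tdT+ and 17.9 ± 5.09 CPM in Sca-1+ tdT- libraries (SD, n = 3 and 2). The values did not overlap, but the highest tdT+ library (13.2 CPM) and the lowest tdT- library (14.3 CPM) were close. The log2 fold change was -0.64 ± 0.29 (SE) and did not pass the edgeR quasi-likelihood test (adjusted p = 0.346, unadjusted p = 0.0499). It passed in 0 of 16 alternative analyses, whose adjusted p ran from 0.173 to 0.993. Whether the tdT difference in Pappa is unequal between the Sca-1 gates was not tested.

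Both Sca-1 comparisons reuse the Sca-1neg libraries that chose Pappa, so its values there are also descriptive. Mean Pappa in Sca-1+ tdT- was 0.228 times that in Sca-1neg tdT- libraries, and mean Pappa in Sca-1+ tdT+ was 0.539 times that in Sca-1neg tdT+. In neither pair did the libraries overlap.

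Pappa2 (chromosome 1, 158711727 to 158980490, minus strand) encodes the related protease that cuts IGFBP3 and IGFBP5. Its transcript was far more scattered than that of Pappa. It was 1.39, 1.48 and 0.155 CPM in Sca-1+ tdT+, 21.7 and 3.94 CPM in Sca-1+ tdT-, 10.1, 0.428 and 0 CPM in Sca-1neg tdT+, and 3.68, 2.80 and 0.951 CPM in Sca-1neg tdT-. The highest value, in Sca-1+ tdT- replicate 1, stood far above its only fellow replicate. The 0 in Sca-1neg tdT+ replicate 3 allows up to 0.165 CPM, taking 3 counts as the limit. The log2 fold change between Sca-1+ tdT+ and Sca-1+ tdT- was -3.66 ± 1.82 (adjusted p = 0.415), and Pappa2 passed in none of the 3 comparisons, nor in any of the 14 alternatives that gave it an adjusted p in each. Of its exon bases, 3.01% are shared with the same-strand gene 1600012P17Rik, so a small part of the counts may not be its own.

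The inhibitor genes Stc1 and Stc2 were highest in Sca-1+ tdT- cells. Stc1 (chromosome 14, 69029238 to 69041804, plus strand) was 0.453, 3.01 and 2.17 CPM in Sca-1+ tdT+, 18.1 and 22.5 CPM in Sca-1+ tdT-, 1.36, 9.21 and 0 CPM in Sca-1neg tdT+, and at most 2.17 CPM in the 3 Sca-1neg tdT- libraries. Both Sca-1+ tdT- libraries lay above all 9 others, the nearest of which was the library labelled Sca-1neg tdT+ replicate 2. Stc2 (chromosome 11, 31357307 to 31370074, minus strand) was 3.01, 1.42 and 1.03 CPM in Sca-1+ tdT+, 5.98 and 6.20 CPM in Sca-1+ tdT-, 0.408, 2.62 and 0.110 CPM in Sca-1neg tdT+, and 1.26, 0.661 and 1.15 CPM in Sca-1neg tdT-. Here too both Sca-1+ tdT- libraries were above all 9 others. Stc1 shares 5.46% of its exon bases with Gm41192 on the opposite strand, and the strand setting of the counting is not given in the sources used here.

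Neither stanniocalcin passed the edgeR test with every library in the model. The Stc1 log2 fold change was -3.44 ± 1.49 in Sca-1+ tdT+ against Sca-1+ tdT- (adjusted p = 0.335) and 3.47 ± 1.49 in Sca-1+ tdT- against Sca-1neg tdT- (adjusted p = 0.228). For Stc2 the values were -1.73 ± 0.98 (adjusted p = 0.481) and 2.57 (2 SE on each side spanning 0.57 to 4.56, adjusted p = 0.169). These comparisons share the 2 Sca-1+ tdT- libraries. Stc1 passed in 2 of 16 alternatives in Sca-1+ tdT+ against Sca-1+ tdT-, with only the 2 groups (adjusted p = 0.0198) and without the liver-transcript libraries (0.00793), and Stc2 in 0 of 15. In Sca-1+ tdT- against Sca-1neg tdT-, Stc1 passed in 4 of 16 and Stc2 in 4 of 15 alternatives, among them DESeq2 (adjusted p = 0.0320 for Stc1 and 0.0464 for Stc2) and the analysis without the liver-transcript libraries (0.0113 for Stc1 and 0.0489 for Stc2). The 8 endothelial markers, at 1882 and 2013 CPM, were also highest in the 2 Sca-1+ tdT- libraries, with the library labelled Sca-1neg tdT+ replicate 2 next at 498 CPM. A summed list of 4 mast cell markers had the same order, at 42.3 and 68.6 CPM, with that library next at 26.4 CPM. The part of either cell type in the Stc1 and Stc2 values was not tested.

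Igf1r (chromosome 7, 67952827 to 68233668, plus strand) encodes the receptor tyrosine kinase that the freed ligand activates. Its level was much alike in all groups: 104, 58.9 and 87.2 CPM in Sca-1+ tdT+, 91.6 and 85.5 CPM in Sca-1+ tdT-, 77.8, 68.9 and 117 CPM in Sca-1neg tdT+, and 103, 80.7 and 95.3 CPM in Sca-1neg tdT-. The groups overlapped in every comparison. The log2 fold change was -0.09 ± 0.26 in Sca-1+ tdT+ against Sca-1+ tdT-, with 2 SE on each side spanning -0.61 to 0.43. It was -0.07 ± 0.26 in Sca-1+ tdT- against Sca-1neg tdT- (-0.59 to 0.46) and -0.08 ± 0.23 in Sca-1+ tdT+ against Sca-1neg tdT+ (-0.55 to 0.39). These intervals leave room for moderate changes in either direction.

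The binding proteins carry most of the differences that passed a test, and they did not move as 1 block. Igfbp4 and Igfbp7 had lower transcript levels in Sca-1+ tdT+ than in Sca-1+ tdT- libraries, and Igfbp3 did not. The 250 bases upstream of the annotated start of these 3 genes are shown because the genes differ in that comparison. The sequences are from the RefSeq promoter table of GRCm38.p6, which matched 8 of the 10 members, and run 5′ to 3′ on the strand of the gene. They lie at chr11:99040994-99041243 (plus strand) for Igfbp4, chr5:77408046-77408295 (minus strand) for Igfbp7 and chr11:7213924-7214173 (minus strand) for Igfbp3. Capitals mark matches on either strand to any of 3 motifs, and no matches overlap. The TATA box was searched as TATAAA. The binding sequence of the Sp1 family, known as the GC box, was searched as GGGCGG. For the TCF/LEF factors, which act in Wnt signalling, the shared core was searched as CTTTGA.
Igfbp4: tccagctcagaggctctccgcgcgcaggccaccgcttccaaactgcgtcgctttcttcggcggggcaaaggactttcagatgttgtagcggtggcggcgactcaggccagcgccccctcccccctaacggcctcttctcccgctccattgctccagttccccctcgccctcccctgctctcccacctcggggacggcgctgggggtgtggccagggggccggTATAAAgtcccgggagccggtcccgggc
Igfbp7: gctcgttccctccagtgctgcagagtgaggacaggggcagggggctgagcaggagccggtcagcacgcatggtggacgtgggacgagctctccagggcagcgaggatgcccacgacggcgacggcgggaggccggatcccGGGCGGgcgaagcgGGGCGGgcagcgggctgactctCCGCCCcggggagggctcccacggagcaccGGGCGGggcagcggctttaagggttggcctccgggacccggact
Igfbp3: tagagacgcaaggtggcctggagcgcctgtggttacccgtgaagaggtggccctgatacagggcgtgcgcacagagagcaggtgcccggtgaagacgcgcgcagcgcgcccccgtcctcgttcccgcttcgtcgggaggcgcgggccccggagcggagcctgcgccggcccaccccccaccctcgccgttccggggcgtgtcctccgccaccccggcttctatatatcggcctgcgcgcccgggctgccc
The Igfbp4 window holds 1 TATA box, 28 bases before the start, and no other match. The Igfbp7 window holds 4 GC boxes, 110, 96, 74 and 44 bases before the start, the one at 74 on the opposite strand. The Igfbp3 window holds none of the 3 motifs as searched. Near its end it holds the letters TATATAT, which an exact search for TATAAA does not match. Of 32851 windows of this length, 12.4% hold the TATA box, 32.7% the GC box and 13.8% the TCF/LEF core. All 3 windows are rich in G and C, at 69.2% for Igfbp4, 74.0% for Igfbp7 and 73.2% for Igfbp3.

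Igfbp4 (chromosome 11, 99041244 to 99054392, plus strand) encodes the main substrate of PAPP-A, a binding protein that mostly restrains IGF action. It was lowest in Sca-1+ tdT+, intermediate in Sca-1+ tdT- and highest in the Sca-1neg groups. Its level was 87.6, 85.5 and 96.9 CPM in Sca-1+ tdT+, 204 and 263 CPM in Sca-1+ tdT-, 677, 296 and 436 CPM in Sca-1neg tdT+, and 326, 554 and 346 CPM in Sca-1neg tdT-. The 3 Sca-1+ tdT+ libraries lay close together and below all 8 others, while the Sca-1neg tdT+ and tdT- libraries overlapped.

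Igfbp4 fell in Sca-1+ tdT+ against Sca-1+ tdT- (90.0 ± 6.10 against 234 ± 41.7 CPM, SD, n = 3 and 2; log2 fold change -1.38 ± 0.32, adjusted p = 0.0464). This call is close to the threshold and held in 8 of 16 alternatives, with log2 fold changes of -1.56 to -1.23 in all. It was lost on leaving out any 1 of the 5 libraries compared, with adjusted p from 0.0923 without Sca-1+ tdT- replicate 1 to 0.366 without Sca-1+ tdT- replicate 2. Igfbp4 also fell in Sca-1+ tdT+ against Sca-1neg tdT+ (90.0 ± 6.10 against 470 ± 193 CPM, n = 3 each; log2 fold change -2.38 ± 0.30, adjusted p = 7.48e-04), and there passed in 16 of 16 alternatives. Between Sca-1+ tdT- and Sca-1neg tdT- the log2 fold change was -0.81 ± 0.33 (adjusted p = 0.191).

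Igfbp5 (chromosome 1, 72857932 to 72874884, minus strand) encodes a matrix-bound binding protein that both pappalysins cut. Its level was 9.09, 26.9 and 5.06 CPM in Sca-1+ tdT+, 41.1 and 69.8 CPM in Sca-1+ tdT-, 89.3, 59.0 and 126 CPM in Sca-1neg tdT+, and 117, 88.0 and 143 CPM in Sca-1neg tdT-. As for Igfbp4, the 3 Sca-1+ tdT+ libraries were below all others. Igfbp5 fell in Sca-1+ tdT+ against Sca-1neg tdT+ (13.7 ± 11.6 against 91.3 ± 33.4 CPM, n = 3 each; log2 fold change -2.74 ± 0.61, adjusted p = 0.0209, 11 of 16 alternatives). That call was lost without Sca-1neg tdT+ replicate 1 (adjusted p = 0.0520) and without Sca-1+ tdT+ replicate 1 (0.0697). Within the Sca-1+ gate its log2 fold change of -2.02 ± 0.63 in tdT+ against tdT- did not pass (adjusted p = 0.171), although it reached -3.02 with adjusted p = 0.0133 without Sca-1+ tdT+ replicate 2, the highest tdT+ library.

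Igfbp7 (chromosome 5, 77349240 to 77408041, minus strand) encodes a secreted relative of the family that binds IGFs only weakly and is abundant in blood vessels. Its level was 9.62, 34.2 and 13.6 CPM in Sca-1+ tdT+, 167 and 294 CPM in Sca-1+ tdT-, 83.5, 194 and 103 CPM in Sca-1neg tdT+, and 113, 138 and 122 CPM in Sca-1neg tdT-. Again all Sca-1+ tdT+ libraries were below all others, and within Sca-1neg tdT+ the highest was the library labelled replicate 2. Igfbp7 fell in Sca-1+ tdT+ against Sca-1+ tdT- (19.2 ± 13.2 against 230 ± 89.7 CPM, n = 3 and 2; log2 fold change -3.59 ± 0.56, adjusted p = 0.0116, 14 of 16 alternatives). The call was lost without Sca-1+ tdT+ replicate 3 (adjusted p = 0.0548) and without Sca-1+ tdT- replicate 2 (0.106). It fell as well in Sca-1+ tdT+ against Sca-1neg tdT+ (19.2 ± 13.2 against 127 ± 59.3 CPM; log2 fold change -2.73 ± 0.52, adjusted p = 0.0103), in 16 of 16 alternatives. The endothelial markers moved with Igfbp7 within the Sca-1+ gate, at 39.5 to 73.2 CPM in tdT+ against 1882 and 2013 CPM in tdT-, and their part in its difference was not tested. In Sca-1neg tdT+ the same markers summed to 69.0, 498 and 5.57 CPM in order of replicate number, where Igfbp7 was 83.5, 194 and 103 CPM. Igfbp7 shares 7.03% of its exon bases with Polr2b on the opposite strand.

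Igfbp3 (chromosome 11, 7206086 to 7213923, minus strand) encodes the main IGF carrier of blood, also made by keratinocytes, and a substrate of PAPP-A2. It was the most abundant member in CPM in the Sca-1+ libraries. Its level was 1121, 587 and 1351 CPM in Sca-1+ tdT+, 1079 and 451 CPM in Sca-1+ tdT-, 199, 628 and 245 CPM in Sca-1neg tdT+, and 257, 180 and 241 CPM in Sca-1neg tdT-. The replicate 2 libraries of Sca-1+ tdT+ and Sca-1+ tdT- and the library labelled Sca-1neg tdT+ replicate 2 fell between the rest of the Sca-1+ and Sca-1neg libraries. Within the Sca-1+ gate the tdT groups overlapped (log2 fold change 0.41 ± 0.56, adjusted p = 0.839). In Sca-1+ tdT- against Sca-1neg tdT- the log2 fold change was 1.76 ± 0.55 with no overlap (adjusted p = 0.102, 3 of 16 alternatives). In Sca-1+ tdT+ against Sca-1neg tdT+ it was 1.51 ± 0.51 (adjusted p = 0.0845), and 2.20 with adjusted p = 0.0136 when the library labelled replicate 2 of Sca-1neg tdT+ was left out.

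Igfbp2 (chromosome 1, 72824503 to 72852474, plus strand) encodes a binding protein that the liver also secretes. Its level was 1.57, 4.77 and 0.723 CPM in Sca-1+ tdT+, 1.55 and 1.88 CPM in Sca-1+ tdT-, 48.4, 28.3 and 3.03 CPM in Sca-1neg tdT+, and 6.30, 29.2 and 4.34 CPM in Sca-1neg tdT-. The 3 values above 28 CPM were those of the liver-transcript libraries. Igfbp2 passed no test, with log2 fold changes of 0.45 ± 1.23 in Sca-1+ tdT+ against Sca-1+ tdT- (adjusted p = 0.942), -2.95 ± 1.35 in Sca-1+ tdT- against Sca-1neg tdT- (0.266) and -3.51 in Sca-1+ tdT+ against Sca-1neg tdT+ (2 SE on each side spanning -5.86 to -1.15, adjusted p = 0.0901). In the last comparison DESeq2 gave adjusted p = 9.03e-04, and the value without Sca-1neg tdT+ replicate 3 was -4.04 (0.0365). Without the liver-transcript libraries the fold changes were smaller, down to -0.40 in that comparison.

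**Figure D2:**
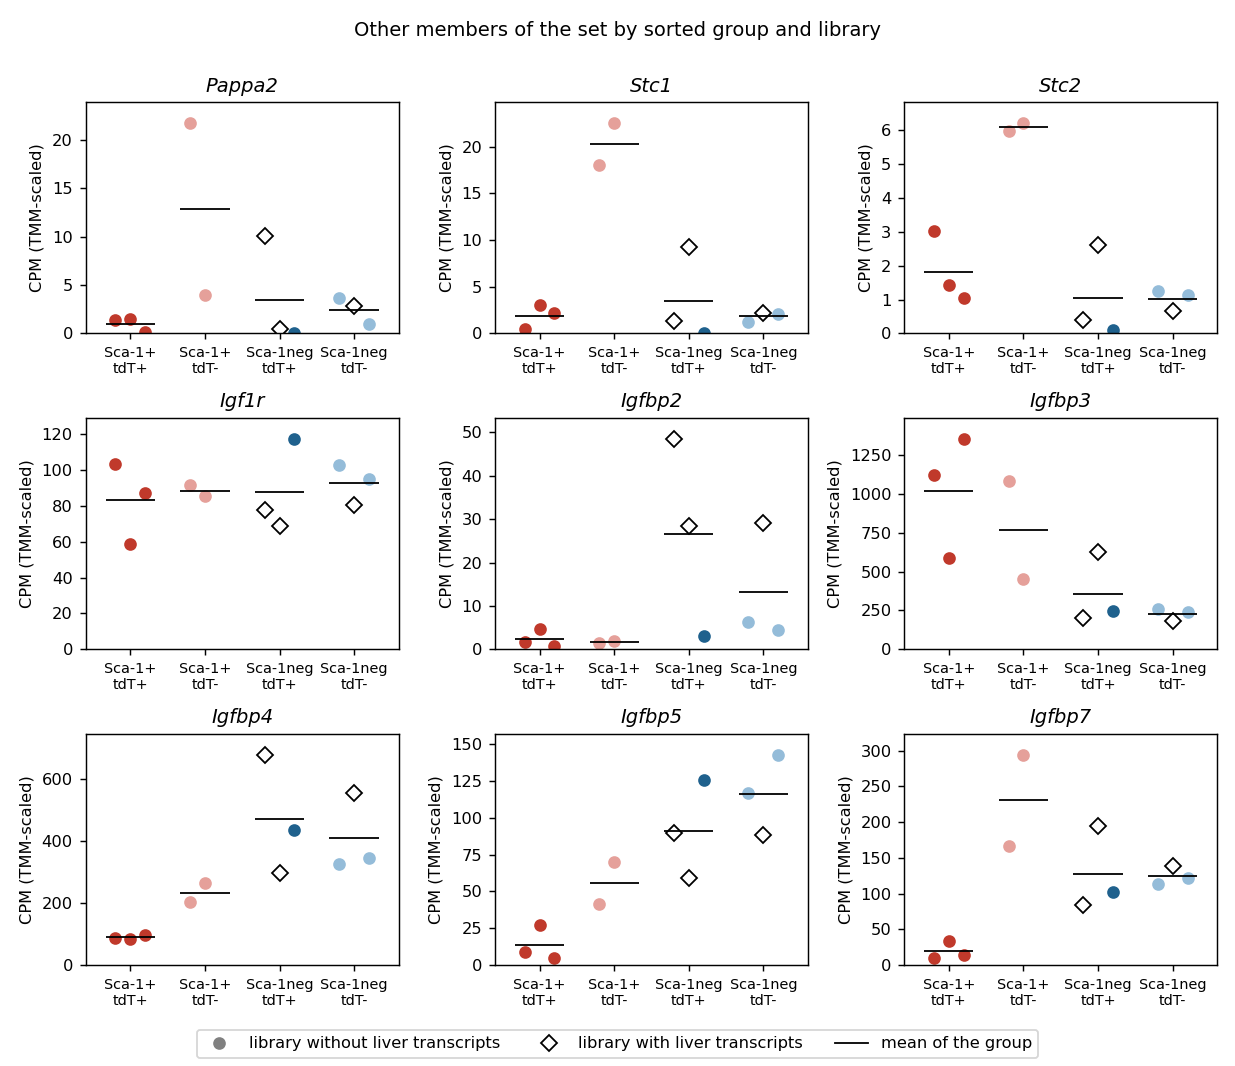
Levels (CPM, TMM-scaled, y axis) of the 9 members other than Pappa in each library of the 4 sorted groups (x axis); symbols are as in the plot of Pappa levels. Igf1r is level across groups, Igfbp4, Igfbp5 and Igfbp7 are lowest in all 3 Sca-1+ tdT+ libraries, Stc1 and Stc2 are highest in both Sca-1+ tdT- libraries, and Igfbp2 is highest in the 3 liver-transcript libraries.

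To compare levels between binding proteins, CPM were divided by exon length in kilobases and each gene was given as a share of the sum of Igfbp1 to Igfbp7. Igfbp3 made up 91.5%, 74.3% and 92.2% of that sum in Sca-1+ tdT+ libraries and 62.7% and 30.3% in Sca-1+ tdT- libraries. It made up at most 40.3% in Sca-1neg tdT+ and 15.1% to 27.1% in Sca-1neg tdT- libraries. Igfbp4 held 4.69% to 7.66% in Sca-1+ tdT+, 8.41% and 12.5% in Sca-1+ tdT-, 13.5% to 38.7% in Sca-1neg tdT+ and 24.4% to 33.0% in Sca-1neg tdT-. Thus transcripts of 1 gene dominated the binding protein pool in Sca-1+ tdT+ cells, whereas Igfbp3, Igfbp4 and Igfbp7 each held a large share in most Sca-1neg libraries. Igfbp7 held 2.03% to 11.2% in Sca-1+ tdT+, 25.1% and 51.1% in Sca-1+ tdT-, 17.4% to 32.3% in Sca-1neg tdT+ and 30.0% to 32.1% in Sca-1neg tdT-. The summed level itself varied less, from 253 to 468 CPM per kilobase in Sca-1+ tdT+, 475 and 550 in Sca-1+ tdT-, 309 to 497 in Sca-1neg tdT+ and 303 to 380 in Sca-1neg tdT-. Shares of a sum are linked to each other and were not tested.

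**Figure D3:**
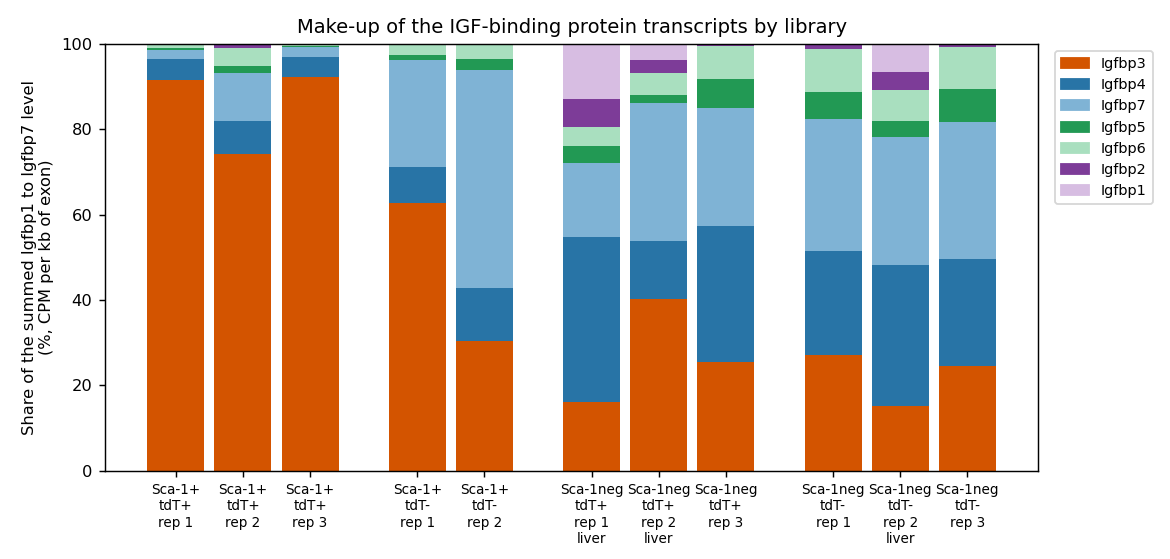
Share of each gene in the summed Igfbp1 to Igfbp7 level (%, CPM per kilobase of exon, y axis) for each library (x axis), stacked by gene, with the liver-transcript libraries marked. Igfbp3 takes 74.3% to 92.2% in Sca-1+ tdT+ libraries and at most 40.3% in Sca-1neg libraries, and Igfbp1 is visible only in the 3 liver-transcript libraries.

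Counted over the set, Sca-1+ tdT+ against Sca-1+ tdT- gave 2 of 10 members that fell (Igfbp4 and Igfbp7) and 0 that rose, where 2.34% of the 20307 genes tested fell, 0.394% rose and 2.74% were called in all. At an unadjusted p under 0.05, 5 members were lower and 0 higher, where 14.5% of genes were past it in either direction. DESeq2 and voom of limma each called 3 lower, adding Igfbp5 (adjusted p = 0.00535 and 0.0127), and 0 higher, where DESeq2 called 7.96% of the genes it gave an adjusted p and voom 5.77% of genes. In that comparison 7 of the 10 members were lower in every tdT+ library than in any tdT- library, against 17.2% of all genes. The median log2 fold change was -1.55 over the members and 0.04 over all genes tested. In Sca-1+ tdT+ against Sca-1neg tdT+, 3 members fell (Igfbp4, Igfbp5 and Igfbp7) and 0 rose, where 6.73% of genes fell, 5.94% rose and 12.7% were called in all. The count leaves out Pappa. Libraries of 3 of these 9 members did not overlap, against 30.4% of genes, and all 3 were lower. At an unadjusted p under 0.05 Igfbp3 was the 1 higher member and 4 were lower (Igfbp2, Igfbp4, Igfbp5 and Igfbp7). DESeq2 called the same members in the same directions, and voom called 0 higher and 3 lower (Igfbp4, Igfbp5 and Igfbp7). Those 3 measures called 29.9%, 23.6% and 12.1% of genes in either direction.

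Among untraced cells, Sca-1+ tdT- against Sca-1neg tdT-, none of the 9 members other than Pappa passed, where 3.68% of genes rose, 2.06% fell and 5.74% were called in all. At an unadjusted p under 0.05 edgeR gave 3 higher (Stc1, Stc2 and Igfbp3) and 1 lower (Igfbp4), where 20.5% of genes were past it in either direction. DESeq2 called the same 3 higher and Igfbp2 lower, with no adjusted p for Pappa2, and voom called Stc1 and Stc2 higher and Igfbp5 lower. DESeq2 called 16.7% and voom 20.8% of genes there. In this comparison 5 of these 9 members were higher and 3 were lower without overlap between libraries, where 19.9% of genes were higher and 26.4% lower in that way. The median gene there had a log2 fold change of -0.13, so values near 0 should be read against that shift. In Sca-1neg tdT+ against Sca-1neg tdT-, the contrast behind the choice of genes, Pappa was the only member whose libraries did not overlap, and it was lower, as were 10.9% of genes.

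Marker lists of other cell types also differed where these members did. For T cells, 4 of 7 markers rose in Sca-1+ tdT+ against Sca-1+ tdT- (sums of 206 to 650 CPM against 52.1 and 54.2 CPM), and all 7 were detected in each of these 5 libraries. There 4 of 8 bulge keratinocyte markers, 1 of 8 endothelial, 1 of 7 pericyte and smooth muscle and 1 of 2 tested mast cell markers fell. The summed mast cell markers averaged 6.47 CPM in Sca-1+ tdT+ and 55.4 CPM in Sca-1+ tdT- without overlap, and melanocyte markers summed to 15.9 to 24.5 CPM against 36.0 and 57.1 CPM. Basal and interfollicular keratinocyte markers summed to 32812 to 37800 CPM in Sca-1+ tdT+ against 22845 and 23206 CPM in Sca-1+ tdT-. The pericyte and smooth muscle list summed to 145 to 194 CPM in Sca-1+ tdT+ against 208 and 313 CPM in Sca-1+ tdT-, and the dermal fibroblast list to 27.8 to 346 CPM against 241 and 486 CPM. In Sca-1+ tdT+ against Sca-1neg tdT+, all 7 T cell and 4 of 7 basal and interfollicular keratinocyte markers rose. All 8 bulge keratinocyte, 1 of 2 tested mast cell and 1 of 6 melanocyte markers fell there. In Sca-1+ tdT- against Sca-1neg tdT-, all 7 T cell and 2 of 7 basal and interfollicular keratinocyte markers rose. There 1 of 2 tested mast cell markers also rose, and 4 of 8 bulge keratinocyte and 1 of 6 melanocyte markers fell. In both Sca-1 comparisons 1 of 7 pericyte and smooth muscle markers rose and 1 fell. The basal and interfollicular list holds the sort marker genes Ly6a and Itga6, and the bulge list holds Cd34. Ly6a is the gene of Sca-1, which defined the gates, so the basal and interfollicular counts are not independent of the sort. The part of these cell types in the Igfbp4, Igfbp5 and Igfbp7 differences was not tested.

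**Figure D4:**
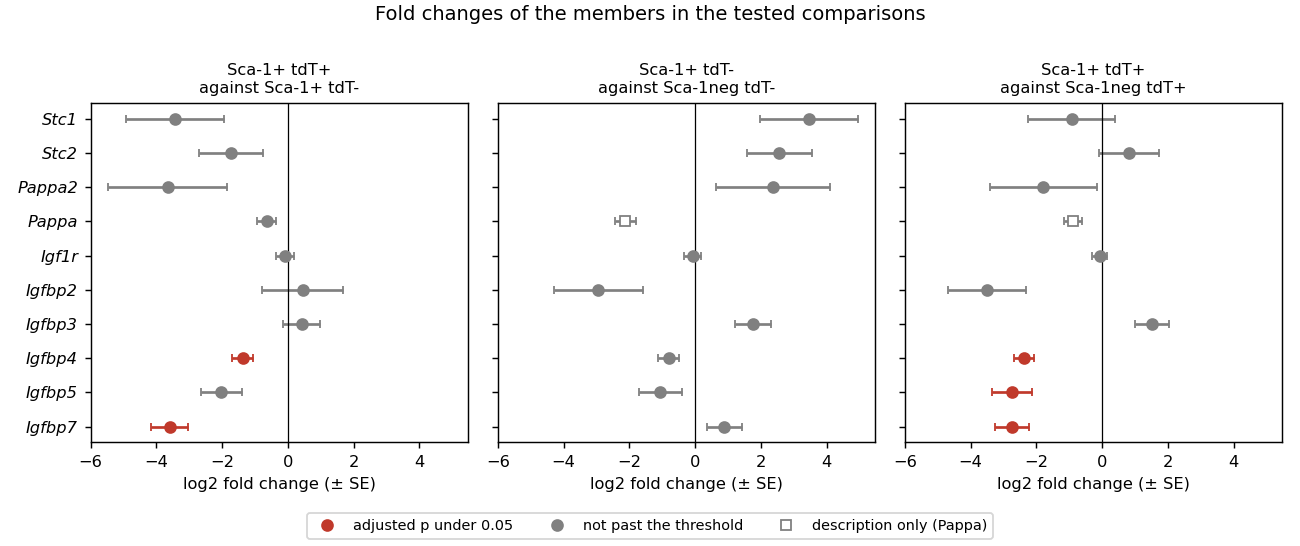
Log2 fold change (x axis, bars are 1 SE) of each member (rows) in the 3 comparisons, 1 panel each; red points passed an adjusted p of 0.05, grey points did not, and open squares are Pappa values given as description. Red points stand only left of 0, for Igfbp4 and Igfbp7 in the Sca-1+ tdT comparison and for Igfbp4, Igfbp5 and Igfbp7 in the tdT+ comparison of Sca-1 gates.

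Beside the members, a list of 29 further genes of the IGF pathway covered ligands, receptors, carriers, other proteases and intracellular signalling, and 23 passed the filter. In Sca-1+ tdT+ against Sca-1+ tdT-, 0 rose and 4 fell by edgeR, among them Igf2r, Insr and Grb10. At an unadjusted p under 0.05, 1 was higher (Htra1) and 8 were lower, DESeq2 called 1 higher and 6 lower, and voom called 0 higher and 5 lower. The shares of all genes called by these measures were 14.5%, 7.96% and 5.77%. In Sca-1+ tdT- against Sca-1neg tdT-, Igf2r rose and Pik3r1 fell. In Sca-1+ tdT+ against Sca-1neg tdT+, Htra1 rose and 6 fell, among them Igfals, Igfbp6, Grb14, Pik3r1 and Foxo3. Of all genes tested, edgeR called 2.74%, 5.74% and 12.7% in either direction in these 3 comparisons. The median log2 fold changes of the 23 were -0.48, -0.03 and -0.85 in these 3 comparisons, against 0.04, -0.13 and -0.07 over all genes tested.

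Among the ligands, Igf1 was 0.906, 6.13 and 1.45 CPM in Sca-1+ tdT+, at least 22.4 CPM in both Sca-1+ tdT- libraries, 133, 81.0 and 1.38 CPM in Sca-1neg tdT+, and 0.351, 65.9 and 1.22 CPM in Sca-1neg tdT-. All values above 60 CPM belonged to liver-transcript libraries, and with every library in the model Igf1 passed in none of the 3 comparisons by edgeR. Without the liver-transcript libraries mean Igf1 was 2.83 CPM in Sca-1+ tdT+ and 23.7 CPM in Sca-1+ tdT-, and edgeR called it lower (log2 fold change -3.16, adjusted p = 0.0429). Without them it was 23.7 CPM in Sca-1+ tdT- against 0.785 CPM in the 2 remaining Sca-1neg tdT- libraries, and edgeR called it higher (4.97, adjusted p = 0.0115). DESeq2 on all libraries called it lower in Sca-1+ tdT+ against Sca-1neg tdT+ (adjusted p = 0.0285). Without the liver-transcript libraries the edgeR log2 fold change of Igf1 in that comparison was 0.98, with 1 Sca-1neg tdT+ library left, at 1.38 CPM. No library had more than 0.380 CPM of Igf2, which was not tested.

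Among the receptors, Igf2r, which takes up IGF2 and carries lysosomal enzymes, was 56.5, 70.0 and 68.4 CPM in Sca-1+ tdT+, against 122 and 138 CPM in Sca-1+ tdT-. It was 88.6, 96.0 and 85.2 CPM in Sca-1neg tdT+ and 91.2, 90.1 and 70.9 CPM in Sca-1neg tdT-. Mean Igf2r in Sca-1+ tdT+ was 0.499 times that in Sca-1+ tdT-, with 2 SE on each side of the log2 fold change spanning -1.32 to -0.69 (adjusted p = 0.00709, 15 of 16 alternatives, lost without Sca-1+ tdT- replicate 2 at 0.0855). The rise in Sca-1+ tdT- against Sca-1neg tdT- was smaller and less firm (0.63 ± 0.16, adjusted p = 0.0418, 6 of 16 alternatives), and was lost on leaving out any 1 of the 5 libraries compared (0.0604 to 0.239). Insr, the insulin receptor gene, was 100, 52.6 and 70.2 CPM in Sca-1+ tdT+, 227 and 318 CPM in Sca-1+ tdT-, 197, 159 and 71.0 CPM in Sca-1neg tdT+, and 88.0, 118 and 71.1 CPM in Sca-1neg tdT-. It fell in Sca-1+ tdT+ against Sca-1+ tdT- (-1.87 ± 0.41, adjusted p = 0.0445), in 7 of 16 alternatives, and the call was lost without any 1 of the 5 libraries compared (0.0580 to 0.410). Both genes were highest in the 2 Sca-1+ tdT- libraries, where the summed endothelial and the summed mast cell markers were also highest. The part of either cell type was not tested.

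The carriers and proteases followed other patterns. Htra1, a serine protease that cuts several IGF-binding proteins, was 240, 227 and 298 CPM in Sca-1+ tdT+, 156 and 152 CPM in Sca-1+ tdT-, 97.8, 87.1 and 78.8 CPM in Sca-1neg tdT+, and 162, 137 and 103 CPM in Sca-1neg tdT-. It rose in Sca-1+ tdT+ against Sca-1neg tdT+ (1.54 ± 0.18, adjusted p = 5.08e-04, 16 of 16 alternatives), and its log2 fold change against Sca-1+ tdT- was 0.73 ± 0.20 (adjusted p = 0.108). Igfbp6, a binding protein with a preference for IGF2, was 3.38, 11.3 and 2.37 CPM in Sca-1+ tdT+, against 19.8, 27.5 and 26.7 CPM in Sca-1neg tdT+ (-2.12 ± 0.48, adjusted p = 0.0173, 13 of 16 alternatives). That call was lost without Sca-1+ tdT+ replicate 1 (0.0604), without the liver-transcript libraries (0.0546) and with only the 2 groups compared (0.0585). Igfals, which encodes the acid-labile subunit of the circulating IGF complex, was 2.03, 1.31 and 1.34 CPM in Sca-1+ tdT+, against 28.5, 18.5 and 5.24 CPM in Sca-1neg tdT+ (-3.47 ± 0.68, adjusted p = 0.00890). Without the liver-transcript libraries its log2 fold change was -1.75 (adjusted p = 0.0477).

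Of the intracellular genes, Grb10, an adaptor that dampens signalling of the insulin and IGF1 receptors, was 1.33, 1.42 and 4.75 CPM in Sca-1+ tdT+ against 27.4 and 20.4 CPM in Sca-1+ tdT- (-3.26 ± 0.69, adjusted p = 0.0322, 10 of 16 alternatives). Leaving out Sca-1+ tdT+ replicate 1 or 2 or either Sca-1+ tdT- library ended that call (0.108 to 0.134).

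Its relative Grb14 was 1.31, 1.87 and 1.19 CPM in Sca-1+ tdT+ against 12.6 to 23.4 CPM in the 3 libraries of Sca-1neg tdT+ (-3.60 ± 0.47, adjusted p = 9.04e-04, 16 of 16 alternatives). Pik3r1, a regulatory subunit of phosphoinositide 3-kinase, was 119, 158 and 111 CPM in Sca-1+ tdT+, against 253, 209 and 323 CPM in Sca-1neg tdT+. Among untraced cells it was 129 and 188 CPM in Sca-1+ tdT-, against 305, 313 and 362 CPM in Sca-1neg tdT-. It fell in Sca-1+ tdT+ against Sca-1neg tdT+ (-1.02 ± 0.21, adjusted p = 0.0104, 16 of 16 alternatives) and in Sca-1+ tdT- against Sca-1neg tdT- (-1.04 ± 0.24, adjusted p = 0.0317, 10 of 16), and the second call was lost without any 1 of the 5 libraries compared (0.0523 to 0.324). Foxo3, a transcription factor held in check by the pathway, was 76.8, 55.1 and 81.6 CPM in Sca-1+ tdT+ against 117, 117 and 151 CPM in Sca-1neg tdT+ (-0.85 ± 0.18, adjusted p = 0.0106).

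**Figure D5:**
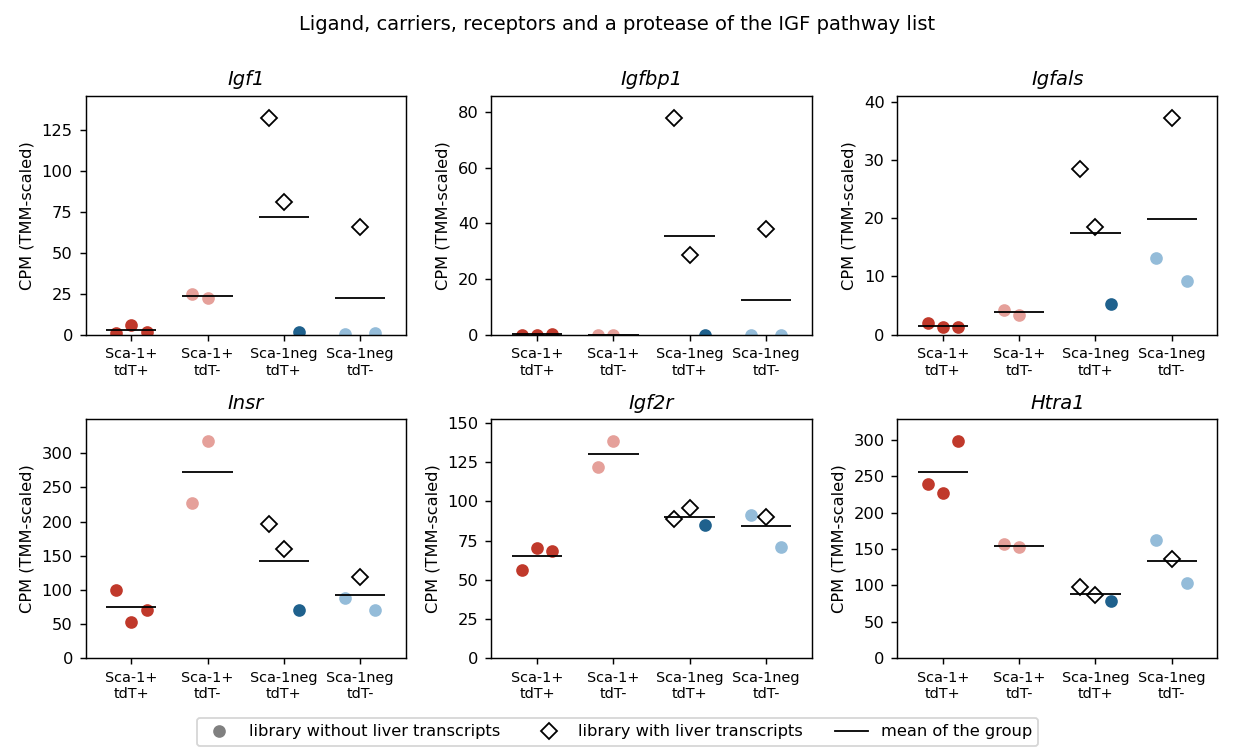
Levels (CPM, TMM-scaled, y axis) of 6 genes of the IGF pathway list in each library of the 4 sorted groups (x axis); symbols are as in the plot of Pappa levels. Igf1, Igfbp1 and Igfals are highest in the 3 liver-transcript libraries, Insr and Igf2r are lower in Sca-1+ tdT+ than in Sca-1+ tdT-, and Htra1 is highest in the 3 Sca-1+ tdT+ libraries.

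The liver-transcript libraries also differed from the other Sca-1neg libraries in several genes of the axis. Igfbp1, a binding protein made mainly by liver, was 28.8 to 78.0 CPM in the 3 liver-transcript libraries against 0 to 0.0488 CPM in the other 3 Sca-1neg libraries. Igfbp2 was 28.3 to 48.4 against 3.03 to 6.30 CPM, Igf1 65.9 to 133 against 0.351 to 1.38 CPM, and Igfals 18.5 to 37.2 against 5.24 to 13.1 CPM. Insr was 118 to 197 against 71.0 to 88.0 CPM. Among the genes named here, those lower in the liver-transcript libraries without overlap were Igf1r (68.9 to 80.7 against 95.3 to 117 CPM) and Igfbp5 (59.0 to 89.3 against 117 to 143 CPM). Pappa overlapped between them, at 14.9 to 96.3 CPM against 25.4 to 72.7 CPM, as did Igfbp3, Igfbp4, Igfbp7, Pappa2, Stc1 and Stc2. Because 2 of the 3 liver-transcript libraries are labelled tdT+, this difference is partly bound up with the tdT labels of the Sca-1neg gate. The share of all genes that separate without overlap between these libraries was not counted.

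Genes following the level of Pappa most closely were ranked by Pearson correlation of log2 CPM among genes with a mean of at least 5 CPM. There were 11752 such genes over all 11 libraries and 11415 over the 8 libraries without liver transcripts. Over all 11 libraries the 8 nearest were Cep131 (r = 0.98), Pygb (0.97), Large2 (0.96), Dmap1 (0.95), Mrtfa (0.95), Eri3 (0.94), Spef1 (0.94) and Etv5 (0.94). Large2, a glycosyltransferase gene, averaged 101 CPM in Sca-1+ tdT+, 107 CPM in Sca-1+ tdT-, 118 CPM in Sca-1neg tdT+ and 239 CPM in Sca-1neg tdT-. Etv5, a transcription factor gene, averaged 12.0, 14.7, 13.4 and 28.1 CPM in the same 4 groups. Over the 8 libraries without liver transcripts the nearest were Dsel, Cep131, Wnk4, Cmtm7, Dmap1, Smim1, Zfp383 and Pip4k2c, with r from 0.97 to 0.98, so that Cep131 and Dmap1 were on both lists. Of the other members, 7 had a mean of at least 5 CPM over the 11 libraries and were ranked there. Over the 8 libraries Igfbp2 fell below that level and was not ranked. Over the 11 libraries Igfbp4 ranked 1387 with r = 0.70, Igfbp5 ranked 1582 with r = 0.67, and Igfbp3 ranked 11187 with r = -0.78. These correlations are descriptions over 11 and 8 libraries that fall into the same 4 groups, so libraries of a group are not independent points of a trend.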

How the data were processed

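RNA was measured in 11 libraries of FACS-sorted dorsal epidermal cells, made with a TruSeq RNA v2 kit, per the labels' protocols. The deposited files hold raw counts per Ensembl gene, made by the authors. The submitters' processing notes list DESeq2 1.18.1, featureCounts, STAR, FastQC and bcl2fastq 2.20.0.422, and the build mm10. The role and order of these tools, the annotation release and the strand setting: not given in the sources used here. Per library there are 55536 genes and 1 further entry, which was read as the tdT tracer from its level in labelled libraries and kept out of library sizes and tests. GENCODE M21 gave symbols for 55450 genes and exon lengths (86 had none). Total counts ran from 17409131 to 46542177.

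The tests used edgeR 4.0.16 under R 4.3.3. The filterByExpr function, given the groups, kept 20307 genes. Scaling was by TMM, and 1 robust quasi-likelihood model of 4 group means covered all 11 libraries. Adjusted p values follow Benjamini and Hochberg across the genes kept, and 0.05 was the threshold. Each SE was taken as the size of the log2 fold change over the root of its F value, which is imprecise where a group has few counts. The 3 comparisons tested were Sca-1+ tdT+ against Sca-1+ tdT-, Sca-1+ tdT- against Sca-1neg tdT-, and Sca-1+ tdT+ against Sca-1neg tdT+. Alternatives were DESeq2 1.42.0, voom of limma 3.58.1 with quality weights, other scalings, filters and terms for replicate number or age, only the groups compared, no liver-transcript libraries (Alb above 1000 CPM), and each library left out. DESeq2 gave no adjusted p for Pappa2.

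In simulated counts for Sca-1+ tdT+ against Sca-1+ tdT- (20307 genes), the test recovered 57% of 100 genes changed 4-fold and 4% of 100 changed 2-fold. It called 0 unchanged genes. Before the change all groups were given the same mean for each gene. The changed genes were drawn from those with a mean of at least 5 CPM, so the shares do not cover Pappa2 and Stc2, which lie below it. The members, the pathway list, the marker lists and the alternatives were chosen with earlier results of these data known. The text names all members, pathway genes that are ligands, receptors, binding proteins or past the threshold, the 8 genes most like Pappa, and markers that stand beside a result. Values of 1 gene of the pathway list are not reported here. Promoter sequences are from RefSeq, GRCm38.p6.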

Additional observations from a re-analysis of the deposited data

How the results depend on the processing

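The counts of all genes called depend on the tool and on single libraries. In Sca-1+ tdT+ against Sca-1+ tdT-, edgeR called 556, DESeq2 1443, voom 1172, edgeR with only the 2 groups compared 957, and edgeR without the 3 liver-transcript libraries 1286; leaving out 1 library each gave 145 to 627. In Sca-1+ tdT- against Sca-1neg tdT-, the counts were 1166, 2895, 4232, 2003 and 2073, and 116 to 1317 with 1 library left out. In Sca-1+ tdT+ against Sca-1neg tdT+, edgeR called 2572, DESeq2 4643 and edgeR with only the 2 groups 1584, and 1591 to 2384 with 1 library left out. The direction of Stc1 in Sca-1+ tdT+ against Sca-1neg tdT+ turned to 8.74 without the liver-transcript libraries (adjusted p = 0.0333), where the 1 remaining Sca-1neg tdT+ library has 0 counts and the fitted value depends on the prior count. A fit that leaves 1 library in a group assumes that it varies like the other groups. The lowest counts came without Sca-1+ tdT- replicate 2, Sca-1+ tdT- replicate 1 and Sca-1neg tdT+ replicate 1, in the order of the comparisons above, and the cause was not tested.

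Among single genes, 673 of the values under alternatives were counted as unchanged, 54 lost and 30 gained a call. For tested values, unchanged meant the same side of the threshold, with direction weighed only where a fit made a call. Igfbp3 in Sca-1+ tdT+ against Sca-1+ tdT- thus counted as unchanged, with log2 fold changes of -0.12 to 1.17 under alternatives. For the Sca-1neg log2 ratios, which have no threshold, unchanged meant a shift below the SD within groups. In the Sca-1neg tdT description, the log2 ratios were -3.53 without tdT+ replicate 1 for Pappa2, and -1.42 for Stc1 and -1.98 for Stc2 without the library labelled tdT+ replicate 2. With the replicate number as a replicate block, the 3 counts were 502, 1027 and 2571, and Igfbp4 in Sca-1+ tdT+ against Sca-1+ tdT- had adjusted p = 0.127 and Igfbp5 in Sca-1+ tdT+ against Sca-1neg tdT+ 0.0509. The block also ended the calls of Insr (0.0760) and Grb10 (0.0956) in the Sca-1+ tdT comparison and of Igf2r (0.0640) and Pik3r1 (0.0502) in the comparison of untraced cells, and Igfbp2 passed in the comparison of traced cells (0.0166). Age as a term ended the calls of Igfbp4 (0.0757), Insr (0.0566) and Grb10 (0.0531) in the Sca-1+ tdT comparison and of Igf2r (0.0535) in that of untraced cells. Deviations of the 15 library pairs with equal numbers correlated from -0.42 to 0.59. Both extremes were pairs of Sca-1neg libraries, where pairs with unequal numbers reached -0.60 and 0.51 and some libraries hold liver transcripts. In the Sca-1+ gate the pairs with equal numbers were at 0.15 and 0.14. These values cannot decide whether the numbers pair the libraries. The main model left out the replicate number, and the replicate block above is the alternative. Changes of 2-fold were seldom detected in the simulated counts.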
